A study of Mus musculus with 48 samples.

Results

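The genes described here write, copy, remove and read DNA methylation: the DNA methyltransferases *Dnmt1*, *Dnmt3a* and *Dnmt3b*, their partner *Uhrf1*, the Tet dioxygenases *Tet1*, *Tet2* and *Tet3*, and the methyl-CpG reader *Mbd2*. A gene was included where the accession of an array probe maps to its symbol, whatever the probe measured. This found 13 probes for 7 of the 8 genes, among 41174 probes and 18437 named genes in all, and no probe was matched to *Tet1*, which is not analysed here. RNA came from liver and whole colon of C57/BL6 mice aged 12 weeks. According to the study's methods these were male offspring, and both diets were high in fat. In the group names the first letter is the diet of the dam before mating and through gestation and lactation, and the second that of the offspring after weaning, where H is high and L is low in selenium and folate. Thus HH and LL mice stayed on 1 diet, HL mice were moved from H to L, and LH mice from L to H. The liver arrays held 5 HH mice, of which 1 had 2 arrays that were averaged, and 6 mice of each other group, and the colon arrays held 6 mice of each group. Each value is the log2 ratio of a mouse's RNA, labelled with Cy3, over a common reference RNA, labelled with Cy5, on a 2-colour Agilent array.

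Folate supplies the methyl groups that reach DNA through S-adenosylmethionine. Dnmt1 restores methylation on the new strand after DNA replication, and Uhrf1 brings it to half-methylated sites. Dnmt3a and Dnmt3b set new marks, while the Tet enzymes oxidise methylcytosine as a first step of its removal. Mbd2 binds methylated CpG sites and recruits the NuRD complex, which silences genes. Liver cells of an adult mouse rarely divide, while the crypts of the colon renew the epithelium without pause.

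The sequence before the transcript start is shown for *Dnmt1* and *Uhrf1*, the pair that acts at replication, because both hold the same E2F-type sequence, and for *Dnmt3b*, which does not. The sequences are from RefSeq (GRCm38.p6), are written 5′ to 3′ on the strand of the gene, and have the match in capitals. For *Uhrf1* (chr17:56304063-56304312, plus strand) and *Dnmt3b* (chr2:153649199-153649448, plus strand) these are the 250 bases before the start, and for *Dnmt1* (chr9:20952814-20952873, minus strand) the first 60 bases of such a window.
Dnmt1: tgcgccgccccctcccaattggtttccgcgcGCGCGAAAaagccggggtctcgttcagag
Uhrf1: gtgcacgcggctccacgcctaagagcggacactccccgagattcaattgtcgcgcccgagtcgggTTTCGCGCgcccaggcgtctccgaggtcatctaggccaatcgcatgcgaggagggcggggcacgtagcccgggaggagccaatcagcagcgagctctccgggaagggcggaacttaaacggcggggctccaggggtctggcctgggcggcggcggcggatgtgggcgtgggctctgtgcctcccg
Dnmt3b: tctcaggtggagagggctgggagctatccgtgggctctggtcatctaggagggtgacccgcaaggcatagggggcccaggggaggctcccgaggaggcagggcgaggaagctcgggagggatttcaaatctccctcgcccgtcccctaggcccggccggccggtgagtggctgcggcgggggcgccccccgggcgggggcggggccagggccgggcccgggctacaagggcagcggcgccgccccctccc
The 4 sequences searched on both strands were TTTCCCGC, TTTCGCGC, TTTGCCGC and TTTGGCGC, the forms of the E2F site, which is known from genes of the cell cycle. Matches to 2 of them may overlap. The windows of 250 bases covered 12 starts of 7 genes, *Tet1* included, while *Mbd2* was not searched. A match was found in 1 of 3 windows of *Dnmt1* and 1 of 2 windows of *Uhrf1*, in both cases TTTCGCGC, which lies on the reverse strand in *Dnmt1*. The windows of *Dnmt3a*, *Dnmt3b*, *Tet1*, *Tet2* and *Tet3* held no match. Of all 32851 windows 0.256% held TTTCGCGC and 1.86% held any of the 4. Among 14 proliferation genes with a window, from the list used below, 4 held a match. Whether the sequence acts in these tissues was not tested. CpG dinucleotides are the sites that DNA methylation needs. They numbered 26 in the *Dnmt1* window with the match, 30 in that of *Uhrf1* and 21 in the *Dnmt3b* window, against a median of 6 over all windows. The window of *Tet2* held 51, more than 99.9% of all windows.

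Across the series, the share of spots well above background in Cy3 ran from 55.1 to 73.7% per array. Tissue identity matched the labels: 8 of 8 hepatocyte genes were called higher in liver, with a median difference of 6.11 on the log2 scale, and 9 of 10 colon epithelium genes and 8 of 8 smooth muscle genes were called lower. *Xist*, the RNA that coats one X chromosome in female cells, was present in 2 of 23 liver mice (HL and LL) and 6 of 24 colon mice (2 HH, 1 HL and 3 LL), which goes against male offspring. The colon of 1 LL mouse stood apart by its lymphocyte genes, with a mean log2 ratio over 10 genes of 2.10 against at most 0.14 in the other colon mice, and by its macrophage genes, at 0.60 over 7 genes against a median of −1.39 in the LL group. In liver, HL mouse 1 stood apart by its exocrine pancreas genes, with a mean of 1.28 over 8 genes against −1.83 or less in every other liver mouse. Leaving out the mice with high *Xist* together, or either of these mice alone, changed no call of a member in the diet comparisons. A slide held 4 arrays, 1 per diet group and all of 1 tissue. A difference between the liver slides and the colon slides therefore cannot be told apart from a tissue difference. Slide as a random block allows only for the likeness of arrays on the same slide. The labels do not say whether liver and colon came from the same animals, and mice were treated as unpaired.

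Liver was compared with colon to describe where these genes are expressed. Transcripts of the maintenance pair were lower in liver, with log2 differences of −3.21 for *Uhrf1* and −1.05 for *Dnmt1*, or 9.28-fold and 2.06-fold. *Mbd2* and *Tet3* were lower in liver as well, with differences of −0.92 and −0.76, while *Dnmt3b* was 0.57 higher and *Dnmt3a* depended on the probe. To be called, a probe needed a change above 1.5-fold and a false discovery rate (FDR; Benjamini-Hochberg, all probes) below 0.05 in limma's moderated test. With the probe of highest mean intensity standing for its gene, 4 of 7 genes were called, all lower in liver, beside 30.3% of 41171 probes called in this comparison, 15.7% lower and 14.6% higher. An FDR under 0.05 at any fold was reached by 6 of 7 genes, beside 69.6% of probes, of which *Dnmt3b* and *Tet2* were higher in liver (71.2% of probes had an unadjusted p under 0.05). The means of *Uhrf1*, *Dnmt1*, *Mbd2* and *Tet3* were higher in each of the 4 colon groups than in any liver group, those of *Dnmt3b* and *Tet2* were higher in each of the 4 liver groups, and for *Dnmt3a* both the highest mean, 0.46 in HH, and the lowest, −0.03 in LH, were those of liver groups. In whole tissue, fewer cells of a type and less RNA per cell cannot be told apart.

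*Uhrf1* had 2 probes. In colon the log2 ratio of the first ranged from −0.69 to 0.60 with a median of −0.11 over 24 mice, and in liver from −3.89 to −2.46 with a median of −3.37 over 23 mice. Every liver mouse lay below every colon mouse, by a wide gap. The difference was −3.21 ± 0.08 (SE; 95% interval −3.37 to −3.06), with an adjusted p of 4.8e-35 in limma. The second probe ranged from −0.81 to 0.45 in colon and from −2.55 to −1.88 in liver, again without overlap, and differed by −1.95 ± 0.07 (adjusted p = 7.26e-28 in limma). In Cy3 the first probe was well above background on 18 of 24 liver arrays and the second on all 24.

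*Dnmt1* ranged from −0.22 to 0.49 in colon, with a median of 0.12, and from −1.37 to −0.61 in liver, with a median of −0.93. The tissues did not overlap, and the difference was −1.05 ± 0.05 (SE), with an adjusted p of 4.08e-22 in limma. Over all probes, 12.0% had every liver mouse below every colon mouse, which 3 of the 13 member probes did.

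Of the enzymes that set new marks, *Dnmt3a* had 3 probes that disagreed. The first, whose accession is that of the transcript coding for the shorter Dnmt3a2 protein, ranged from −0.45 to 0.81 in liver and from −0.50 to 0.68 in colon. Its difference was −0.01, with a 95% interval of −0.21 to 0.20. The other probes share the accession of the longer transcript. One of them lay between −0.01 and 0.90 in liver and between −0.60 and −0.17 in colon, so that every liver mouse was above every colon mouse, as for 11.1% of all probes, and its difference of 0.70 ± 0.05 (SE) was called (adjusted p = 3.62e-16 in limma). The remaining probe differed by −0.11, a 1.08-fold difference. No direction for the gene as a whole can be given from these values.

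*Dnmt3b* ranged from −0.68 to 0.68 in liver and from −0.99 to −0.25 in colon. The liver mean was higher by 0.57 ± 0.08 (SE), or 1.48-fold, with an adjusted p of 8.09e-08 in limma, and so missed the call by its fold change alone.

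Among the dioxygenases, *Tet3* ranged from −1.25 to 0.03 in liver, with a median of −0.97, and from −0.41 to 0.41 in colon, with a median of −0.04. The ranges overlapped and the difference was −0.76 ± 0.08 (SE; adjusted p = 2.23e-11 in limma). A second probe of *Tet3* gave a similar difference of −0.65 ± 0.05, while the third was not well above background on any liver array and on only 4 of 24 colon arrays and gives no measure. *Tet2* ranged from −0.99 to −0.35 in liver and from −1.20 to −0.55 in colon, which was 0.17 higher in liver (adjusted p = 0.0045 in limma). Its second probe differed by −0.20, but was well above background on only 3 of 24 liver arrays. Thus, as processed here, the probes of *Tet2* differed in sign, both at less than 1.2-fold. The size at the second probe depended on the processing, as given below.

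*Mbd2*, which had 1 probe, ranged from −1.08 to 0.23 in liver, with a median of −0.49, and from −0.30 to 1.02 in colon, with a median of 0.44. The difference was −0.92 ± 0.10 (SE), a 1.89-fold lower level in liver, with an adjusted p of 4.46e-11 in limma. Although the means lay far apart, the lowest colon mouse of each diet group lay below the highest liver mouse.

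**Figure D1:**
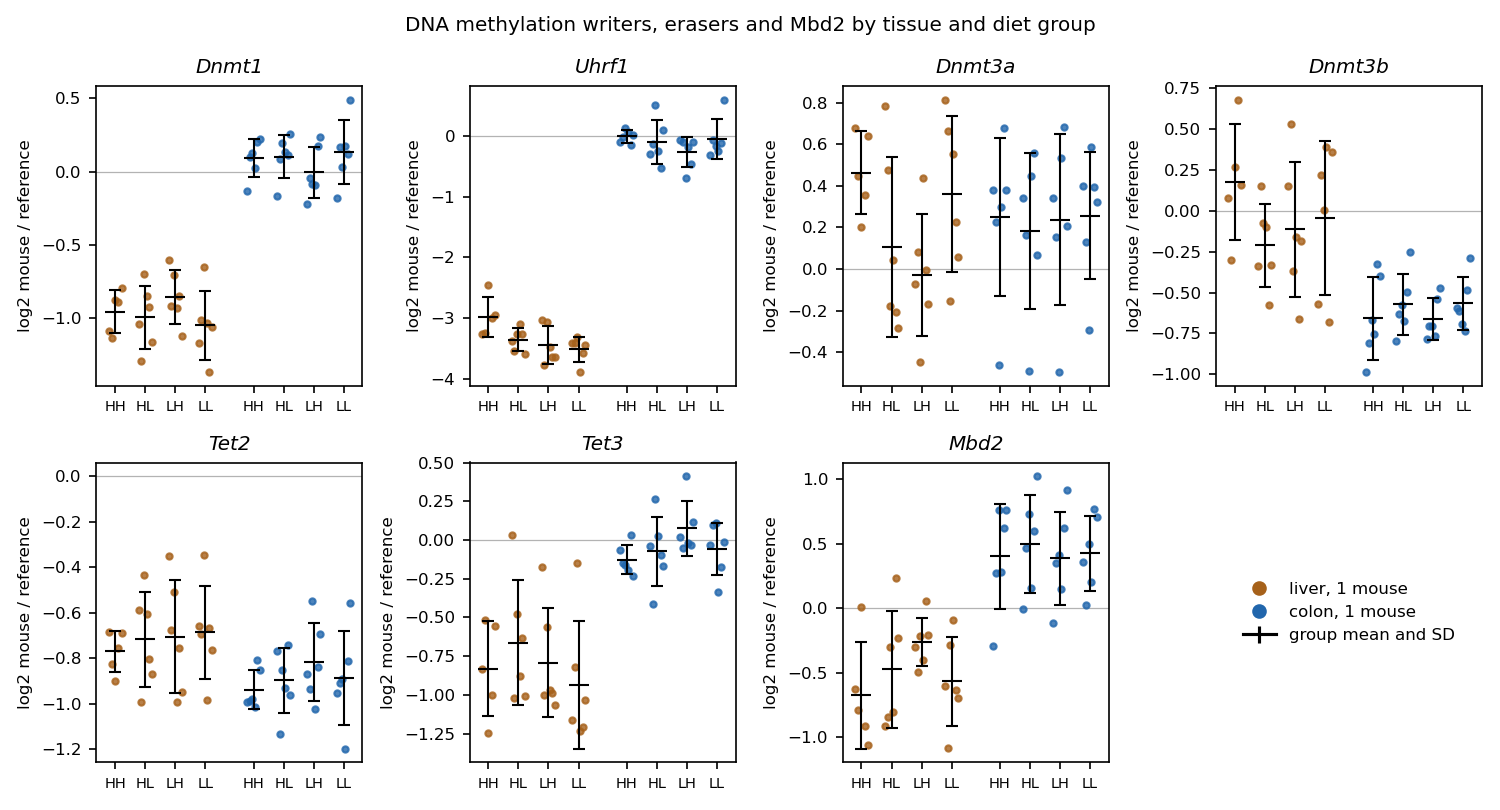
Log2 ratio of mouse over reference RNA (y axis) for the probe that stands for each of 7 genes, by diet group (x axis) in liver and colon, where a point is 1 mouse and bars are the group mean and SD. *Uhrf1* and *Dnmt1* separate the tissues without overlap, and the diet groups of a tissue overlap for all 7 genes except HH and LL for *Uhrf1* in liver.

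The processing bears on these sizes. The offset of 50 added in background correction narrows the ratios of dim spots: with an offset of 0 the *Uhrf1* probes differed by −4.16 and −2.61, and the second *Tet3* probe by −0.87. The processed signals of the scanner software, which differ in several steps, gave −4.79, −3.03 and −1.19, and the mean of all probes of a gene gave −2.58 for *Uhrf1*. The second *Tet2* probe, dim in liver, gave −0.649 with an offset of 0 and −1.497 with processed signals, and was called with both. Cy3 alone gave −0.073 for this probe, which was then not called. Median centring in place of loess moved the median of all probes from 0.01 to 0.22, and gave −1.68 for *Dnmt1*, −1.55 for *Mbd2*, −1.39 for *Tet3*, 0.19 for *Dnmt3b* and −0.21 for *Tet2*, whose sign turned. It also gave −0.61 for the first probe of *Dnmt3a*, which was then called lower in liver, and 0.31 for the one that is called higher with loess, which was then not called. With slide as a random block the adjusted p-values in limma rose to 8.56e-31 for *Uhrf1* and 0.0261 for *Tet2*, and no call of a member probe changed.

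**Figure D2:**
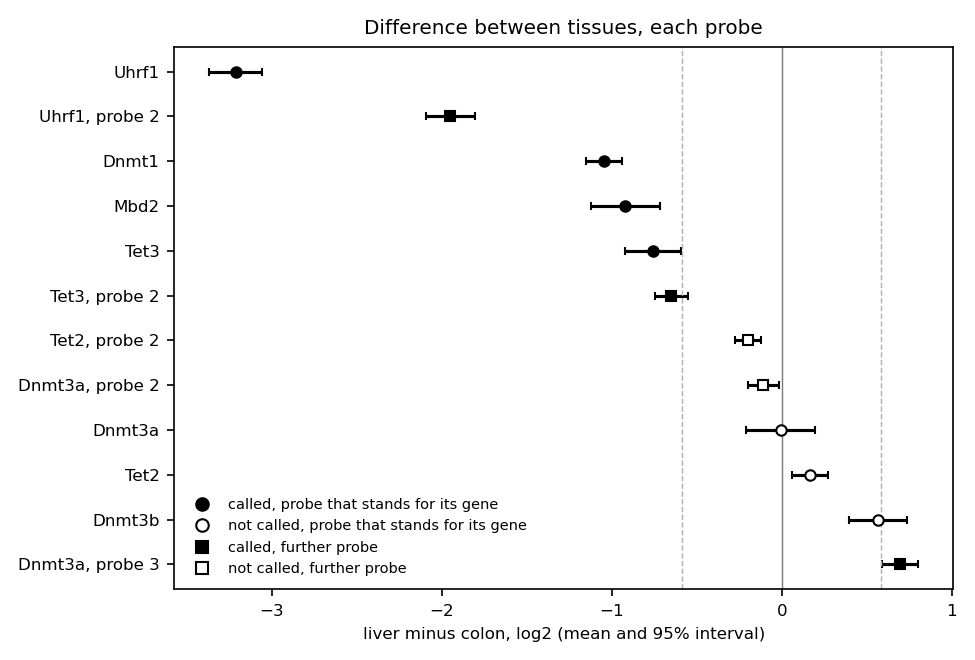
Liver minus colon difference of the log2 ratio (x axis) with its 95% interval for the 12 probes that rise above background (y axis), where circles stand for a gene, squares are further probes of a gene, and filled symbols were called. Dashed lines mark a 1.5-fold change, and both probes of *Uhrf1* lie farthest to the left, at −3.21 and −1.95.

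Genes that work with these enzymes were followed as 3 lists. Of 13 other writers and partners, 5 were called lower in liver and 0 higher, beside 15.7% and 14.6% of all probes, with a median difference of −0.42, against 0.01 over all probes. Those called were the chromatin remodeller *Hells* (−1.77 ± 0.06, SE) and its activator *Cdca7* (−2.71 ± 0.05), which DNA methylation needs, *Ezh2* (−1.24), a histone H3 methyltransferase, *Ehmt2* (−0.75), and *Trdmt1* (−0.62), a tRNA methyltransferase. In Cy3 *Hells* was well above background on only 5 of 24 liver arrays. Of 14 readers and corepressors, 3 were called lower and 0 higher, among them the NuRD subunit *Rbbp7* (−0.91) and *Zbtb4* (−1.17), which binds methylated DNA. Of 13 genes of demethylation, *Cxxc5* (1.43) and *Idh1* (1.38) were called higher, and *Gadd45b* (−2.28) and *Gadd45a* (−0.75) lower.

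Proliferation genes moved in the same direction as *Uhrf1* and *Dnmt1* between the tissues. Of 16 measured, 15 were called lower in liver and the median difference was −1.83. The proliferation marker *Mki67* differed by −3.32 ± 0.08 (SE), or 9.96-fold, and the topoisomerase *Top2a* by −1.90 ± 0.07, although *Top2a* was well above background on only 4 of 24 liver arrays. The part of dividing cells in the differences of the member genes was not tested.

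The effect of the diets was asked within each tissue, with 6 comparisons between groups. In liver 0 of 7 genes were called in any of them, where limma called 0% of 41171 probes. At an unadjusted p under 0.05 there were 5 of 42 tests of a gene, 3 of them for *Uhrf1* and 2 for *Dnmt3a*, and the lowest adjusted p was 0.26. The share of all probes with p under 0.05 was 12.0% for LH against HH, where 2 genes had it, 4.38% for HL against HH, 3.45% for LL against HH and 6.38% for LL against LH, with 1 gene each, and 3.08% for LL against HL and 1.74% for LH against HL, with 0 genes. For dam diet, offspring diet and their interaction 0 of 7 genes were called and 1 each had an unadjusted p under 0.05, beside 4.14%, 1.37% and 11.4% of probes. In colon 0 of 7 genes were called, again beside 0% of 41173 probes. An unadjusted p under 0.05 was found for 1 gene in LH against HH, beside 3.24% of probes, and for 0 genes in HL against HH (1.46%), LL against HH (1.72%), LL against HL (1.02%), LL against LH (2.80%) and LH against HL (2.95%), nor for dam diet (2.11%), offspring diet (2.04%) or their interaction (1.79%).

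*Uhrf1* in liver was highest in HH mice. The 5 HH mice had log2 ratios of −3.27, −3.24, −2.46, −2.99 and −2.96. The 6 HL mice ranged from −3.60 to −3.09 with a median of −3.32, the 6 LH mice from −3.77 to −3.03 with a median of −3.56, and the 6 LL mice from −3.89 to −3.31 with a median of −3.43. Every LL mouse was below every HH mouse, which held for 0.253% of all probes and for 1 of the 13 member probes, whereas HL and LH overlapped with HH.

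Compared with HH, *Uhrf1* differed by −0.53 ± 0.15 (SE) in LL, by −0.45 ± 0.15 in LH and by −0.37 ± 0.15 in HL. The unadjusted p-values were 0.00199, 0.00617 and 0.0221, and the adjusted ones 1.0, 0.26 and 0.95 in limma, so that none of these differences passed the test over all probes. Within slides, the LL array was below the HH array on 6 of 6 slides, the HL array on 6 of 6 and the LH array on 5 of 6. The HH arrays of 2 of these slides are of the same mouse, so that the 6 slides hold 5 HH mice. The share of all probes that keep the same direction on every slide was not counted, for this gene or those below. Directions were examined in 78 tests of a member probe per tissue, and chance alone gives some with 1 direction on every slide. By dam diet, L minus H was −0.31 (95% interval −0.52 to −0.09, adjusted p = 1.0 in limma). By offspring diet, L minus H was −0.22 and was not called either. The second probe, whose mice followed the first within groups (Pearson r = 0.87 over 23 liver mice), gave −0.20 in LL, −0.21 in LH and −0.17 in HL, with unadjusted p-values in limma of 0.0679, 0.0566 and 0.11.

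The HH mouse at −2.46 was the one with 2 arrays, on different slides, and both read −2.46. Its mean over the 16 proliferation genes was −1.41, while the other 4 HH mice had −1.92 or less. Without it the differences of *Uhrf1* were −0.40 in LL, −0.32 in LH and −0.24 in HL, with unadjusted p-values of 0.011, 0.033 and 0.107 in limma. As for the proliferation list itself, 0 of 16 genes were called, with medians of −0.29, −0.25 and −0.21 in LL, LH and HL. At an unadjusted p under 0.05, 7, 6 and 3 genes were lower, beside 3.45%, 12.0% and 4.38% of all probes in either direction. Without the same HH mouse these counts were 2, 1 and 0 of 16, with medians of −0.17, −0.12 and −0.09. *Mki67* differed by −0.34, −0.40 and −0.36 with all mice. Whether proliferation has a part in the *Uhrf1* values was not tested.

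**Figure D3:**
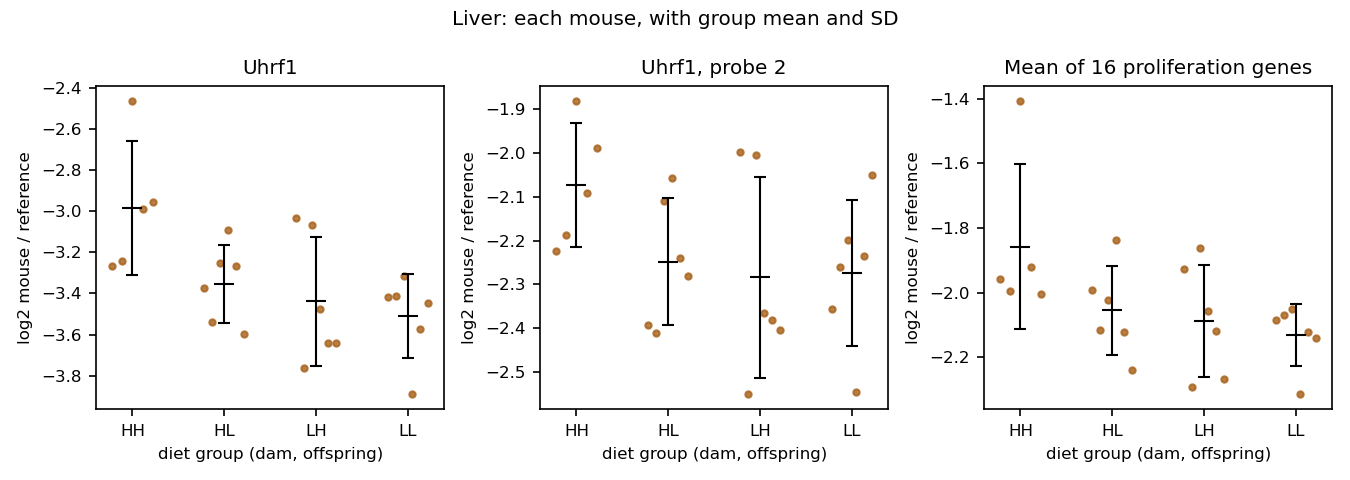
Log2 ratio of mouse over reference RNA (y axis) in liver by diet group (x axis) for both *Uhrf1* probes and for the mean of 16 proliferation genes, where a point is 1 mouse and bars are the group mean and SD. HH has the highest mean in all 3 panels, and its highest mouse, at −2.46 for *Uhrf1*, also has the highest proliferation mean, at −1.41.

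*Dnmt3a* in liver was read through its first probe at 0.20 to 0.68 in HH mice, −0.28 to 0.78 in HL, −0.45 to 0.44 in LH and −0.15 to 0.81 in LL. The lowest mean was that of LH, −0.03, the lowest median that of HL, −0.07, and all groups overlapped. LH minus HH was −0.49 ± 0.19 (SE) and LL minus LH was 0.39 ± 0.18, with unadjusted p-values of 0.0185 and 0.0464 and adjusted ones of 0.32 and 0.77 in limma. With slide as a block HL minus HH was −0.31 (95% interval −0.59 to −0.02). Its unadjusted p was then 0.0371 and its adjusted p 0.78 in limma. On every slide the LL array was above the LH array, by 0.12 to 0.89, and above the HL array, by 0.02 to 0.51. The interaction of dam and offspring diet was 0.75 ± 0.27 (adjusted p = 0.33 in limma). Neither of the other probes of *Dnmt3a* had an unadjusted p under 0.05 in any comparison of the liver groups, and across mice they did not follow the first (Pearson r = −0.25 and −0.15 over 23 mice).

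For the remaining genes the liver intervals bound what the diets could have done. Over the 6 comparisons, the 95% intervals of the probe that stands for the gene reached at most 1.34-fold for *Dnmt1*, 1.26-fold for *Tet2*, 1.61-fold for *Tet3*, and 1.79-fold for *Dnmt3b* and for *Mbd2*. The widest difference for *Mbd2* was 0.41, from −0.67 ± 0.41 (SD, n = 5) in HH to −0.26 ± 0.19 (SD, n = 6) in LH, and that for *Dnmt3b* was −0.39, from 0.18 ± 0.35 (SD, n = 5) in HH to −0.21 ± 0.26 (SD, n = 6) in HL. In both cases the groups overlapped. With slide as a block HL minus HH for *Dnmt3b* was −0.44 (95% interval −0.85 to −0.02). Its unadjusted p was then 0.0392 and its adjusted p 0.78 in limma. The second probe of *Tet2* gave −0.20 in HL and −0.19 in LH and in LL against HH, but was well above background on only 1 of the 6 HH arrays.

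In colon the diet groups of a gene lay close together. The largest difference of a probe that stands for a gene was −0.26, for *Uhrf1* in LH against HH (unadjusted p = 0.103 in limma), a comparison in which the 16 proliferation genes had a median of −0.20. The 95% intervals reached at most 1.48-fold for *Uhrf1*, 1.42-fold for *Mbd2*, 1.40-fold for *Dnmt3a*, 1.32-fold for *Tet3* and 1.26-fold or less for *Dnmt1*, *Dnmt3b* and *Tet2*. With slide as a block they reached 1.45-fold for *Uhrf1*, 1.30-fold for *Tet3* and 1.16-fold for *Dnmt3a*. An unadjusted p under 0.05 was then found in 2 of 42 tests of a gene, beside 5.38% of the tests over all probes, for LH against HH in *Tet3* and for LL against LH in *Dnmt1* (0.14 ± 0.06, SE; adjusted p = 0.63 in limma). On every slide the LL array was above the LH array for *Dnmt3b*, by 0.01 to 0.19. With slide as a block its unadjusted p was 0.117 in limma.

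*Tet3* was the one gene with an unadjusted p under 0.05 in colon without a slide term. Its first probe ranged from −0.23 to 0.03 in HH mice, from −0.41 to 0.26 in HL, from −0.05 to 0.41 in LH and from −0.33 to 0.11 in LL. The second ranged from 0.46 to 0.89, from 0.55 to 0.74, from 0.59 to 1.13 and from 0.26 to 0.77. Both means were highest in LH, with overlap between all groups. LH exceeded HH by 0.20 ± 0.10 (SE) at the first and by 0.28 ± 0.09 at the second probe, with unadjusted p-values of 0.0483 and 0.00498 and an adjusted p of 1.0 for both in limma, where 3.24% of all probes had p under 0.05. With slide as a block the unadjusted p-values were 0.0273 and 0.00519 and the adjusted ones 0.55 and 0.43 in limma. Without LH mouse 3, the highest at the first probe, the differences were 0.13 and 0.26, with unadjusted p-values of 0.162 and 0.0136 in limma. Within groups the 2 probes did not follow each other across mice (Pearson r = 0.07 over 24 mice). On 5 of 6 slides the LH array was above the HH array for each probe. The second probe also had an unadjusted p under 0.05 in limma for LL minus LH (−0.27), LH minus HL (0.20) and the interaction (−0.35), with and without a slide term. With slide as a block their adjusted p-values were 0.59, 0.61 and 0.99 in limma. Without LH mouse 3, and with no slide term, LH minus HL was 0.18 (unadjusted p = 0.0832 in limma).

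Of the 3 pathway lists, 0 genes were called in LH against HH or by dam diet in either tissue. Among writers and partners in liver, the lowest p-values for LH minus HH were those of *Cdca7* (−0.30 ± 0.11, SE), of *Uhrf2* (−0.19 ± 0.08), a relative of *Uhrf1*, and of *Hells* (−0.28 ± 0.13), with adjusted p-values of 0.29, 0.37 and 0.40 in limma. Because *Hells* was well above background on few liver arrays, its liver differences here and by dam diet are those of a dim probe. Among readers these were *Rbbp7* (0.31 ± 0.09), the histone deacetylase *Hdac2* (0.36 ± 0.18) and the NuRD subunit *Gatad2a* (0.22 ± 0.12), with adjusted p-values of 0.23, 0.44 and 0.46. Among genes of demethylation these were the stress-response genes *Gadd45g* (−0.90 ± 0.26) and *Gadd45b* (−0.48 ± 0.19) and the isocitrate dehydrogenase *Idh1* (0.62 ± 0.24), with adjusted p-values of 0.24, 0.32 and 0.31 in limma. The same selection by dam diet in liver gave *Uhrf2* (−0.14), *Cdca7* (−0.14), *Hells* (−0.15), *Rbbp7* (0.11), *Gatad2b* (0.07), *Gatad2a* (0.11), *Gadd45g* (−0.34), *Cxxc4* (0.09) and *Gadd45b* (−0.22), all with an adjusted p of 1.0.

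In colon, all values of this kind had an adjusted p of 1.0 in limma. For LH minus HH they were *Cdca7* (−0.19), *Hells* (−0.17), *Ehmt2* (0.15), *Zbtb4* (0.19), *Gatad2a* (−0.09), *Chd4* (−0.07), *Gadd45b* (0.34), *Cxxc4* (0.09) and *Hmces* (−0.09). By dam diet they were *Cdca7* (−0.09), *Zfp57* (0.06), *Ehmt2* (0.11), *Zbtb4* (0.09), *Mbd4* (0.10), *Gatad2a* (−0.04), *Gadd45b* (0.31), *Gadd45g* (0.10) and *Apex1* (−0.07). *Zfp57* was well above background on only 2 of 24 colon arrays, and *Cxxc4* on 0 of 24 liver arrays.

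The tissues were also compared in their diet effects, as the liver difference minus the colon difference. In these 5 comparisons 0 of 7 genes were called and limma called 0% of 41171 probes. At an unadjusted p under 0.05 there were 0 genes, beside 7.53% of probes for LH minus HH, 2.09% for HL minus HH, 3.52% for dam diet, 1.67% for offspring diet and 4.33% for the interaction, and the lowest adjusted p of a gene was 0.72. For *Uhrf1*, LH minus HH was −0.45 in liver and −0.26 in colon.

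In colon, slide took up more of the variance than diet for most member probes, with the second probe of *Tet3* as the exception, at 11.1% against 37.3%. A factor of 6 slides takes up more variance by chance than a factor of 4 diet groups, and the shares are not adjusted for this. With diet group in the model, limma's F-test over the 6 slides gave an FDR under 0.05 for 7 of the 13 member probes, beside 40.4% of 40579 probes. The colon log2 ratios of *Dnmt3a* averaged −0.43 on slide 9, where all 4 diet groups lay between −0.50 and −0.29, and 0.58 on slide 11, where they lay between 0.39 and 0.68. No mouse on slide 9 came near any other colon mouse. Slide took up 93.0% of the variance of this probe and diet 0.758%, against medians over all probes of 40.4% and 7.31%.

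*Mbd2*, *Dnmt3b* and *Dnmt1* shared another order of slides. *Mbd2* averaged −0.02 on slide 7 and 0.85 on slide 12, *Dnmt3b* −0.79 and −0.35, and *Dnmt1* −0.17 and 0.30, so that all 3 were lowest on slide 7 and highest on slide 12. Their adjusted p-values over slides were 3.25e-05, 0.000192 and 0.000324 in limma. For the first probes of *Uhrf1* and *Tet3* slide took up 27.3% and 31.4% and diet 12.7% and 18.2%, and their adjusted p-values over slides were 0.28 and 0.20. The second *Uhrf1* probe, with 45.6% taken up by slide, passed at an adjusted p of 0.0472 in limma. In liver 0 of 13 member probes had an FDR under 0.05 over slides, beside 4.02% of 40828 probes, and the lowest adjusted p was 0.0557, for the first probe of *Dnmt3a*. The labels give a slide number only, and what else the mice of a slide share is not given, so slide and any order of sampling cannot be told apart. Since each slide carried all diet groups, a model with slide as a block was also fitted, and 0 of 7 genes were called with it in either tissue. In liver, where it takes the first of the 2 arrays of the HH mouse, 7 of 42 tests of a gene then had an unadjusted p under 0.05, beside 6.84% of the tests over all probes, and the lowest adjusted p was 0.17 in limma. These tests were of *Uhrf1*, *Dnmt3a* and *Dnmt3b*.

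**Figure D4:**
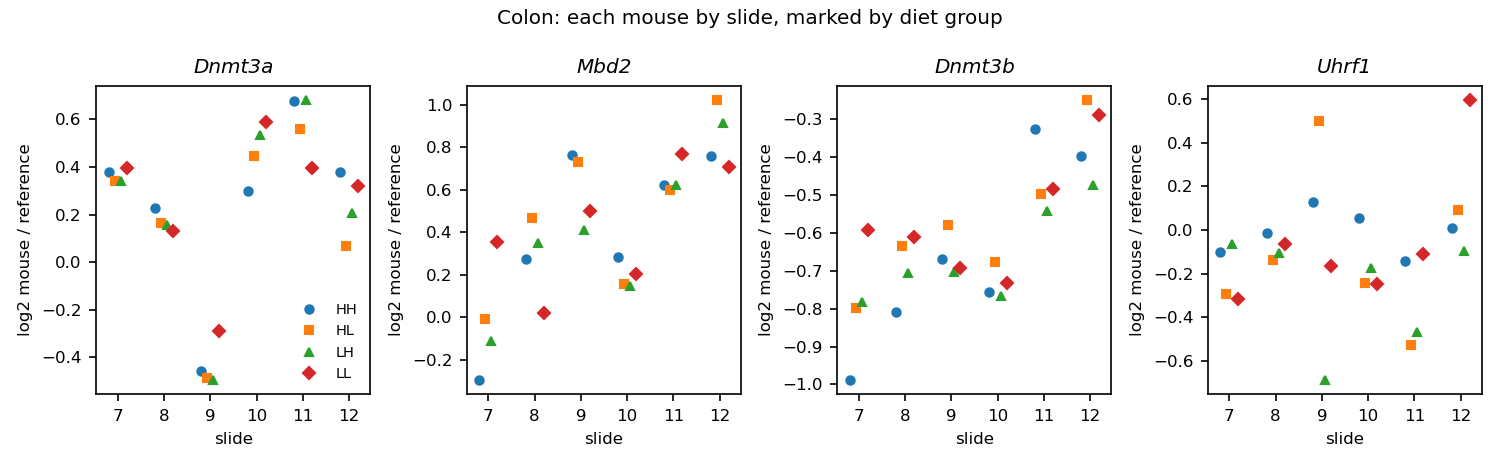
Log2 ratio of mouse over reference RNA (y axis) in colon by slide number (x axis) for 4 genes, where a point is 1 mouse and its shape gives the diet group. The mice of slide 9 lie at −0.50 to −0.29 for *Dnmt3a*, apart from all others, *Mbd2* and *Dnmt3b* have their highest mean on slide 12, and the first probe of *Uhrf1* has an adjusted p over slides of 0.28.

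How the genes varied together across mice was described with the diet group means removed, by Pearson r over 23 liver or 24 colon mice. These correlations carry no test, and the mice of a slide share it. The named genes most like *Uhrf1* in liver, of 19421 detected probes, were *Ncapg* (0.91), *Tpx2* (0.90) and *Ect2* (0.89), which act in mitosis, and in colon, of 21967, *Cdc6* (0.85) and *Mcm4* (0.81), which license DNA replication, and *Ykt6* (0.77). For *Dnmt1* these were *Plin3*, *Pak2* and *Qrich1* (0.85 to 0.91) in liver and *Bub1b*, *Mtrex* and *Zfp512* (0.90 to 0.91) in colon. *Dnmt1* and *Uhrf1* themselves gave 0.62 in liver and 0.46 in colon.

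The first probe of *Dnmt3a* had *Thap12* among its nearest genes in both tissues (0.92 and 0.94), next to *Zranb2* and *Ckap5* in liver and *Tsc22d4* and *Rnf6* in colon. The genes nearest to *Mbd2* were *Cttn*, *Wdr11* and *Gm6548* in liver (0.92 to 0.93) and *Arf1* and *Gnas* in colon (0.96 each). Those nearest to *Dnmt3b* were *Ethe1*, *Tubb2a* and the clock gene *Arntl* in liver (0.85 to 0.88) and *Fbxw2*, *Rabif* and *Pnp* in colon (0.93 to 0.94). *Tet2* was nearest to *Rab11fip1*, *Nucks1* and *Meaf6* in liver (0.88 each) and to *Fbln1*, *Erbin* and *Lin7c* in colon (0.80 to 0.81), and *Tet3* to *Repin1*, *Tcf20* and *Ago4* in liver (0.87 to 0.89) and to *Zfp768*, *Mcmbp* and *Septin2* in colon (0.81 each). Among the members, *Tet2* and *Tet3* had the highest r in liver, 0.74, and *Dnmt3b* and *Mbd2* in colon, 0.83. The lowest were −0.54 for *Dnmt3a* and *Mbd2* in liver and −0.50 for *Dnmt3a* and *Tet3* in colon.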

How the data were processed

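RNA was hybridised to 48 arrays against a common reference, with no dye swap. The series' design text gives the reference as one pregnant mouse with its foetus, and the methods as pooled intestinal and liver RNA. The authors deposited median spot and local background intensities, processed intensities and flags of Feature Extraction, and normalized log2 values (Cy5 over Cy3), which loess without background correction matched on every array (Pearson r of 0.9997 or more). The submitters' processing notes name limma and R 3.0.2.

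Here, R 4.3.3 with limma 3.58.1 was used. A local background above its spot was set to the channel's median, because such spots had narrowed the ratios of some arrays. Then followed normexp (offset 50), global loess, the mean over spots of a probe, lmFit and eBayes, and Benjamini-Hochberg adjustment over all probes with values in at least 2 mice per group. The 4 groups of a tissue shared a fit, and all 8 groups for comparisons of tissues. Accessions named 27050 of 41174 probes. All member probes are given. From the pathway lists the called genes are named, or the 3 of lowest p where under 3 or over 8 were called, and for each member the 3 most similar genes. Some genes that this rule names are not reported here. Members and lists were chosen with earlier results of these data known, and the F-test over slides and the proliferation counts without single HH mice were added after seeing the data. The models were tested on simulated data. The labels give separate animals but not litters, and the number of arrays limits the precision.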

Additional observations from a re-analysis of the deposited data

Results flagged for a closer look

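Of 96 sets of mice (12 probes in 8 groups), 4 had a highest or lowest mouse far from the rest by Dixon's test at the 95% level, which chance alone gives for about 1 set in 20. All 4 were in colon. In LL mice *Uhrf1* was 0.60 in mouse 6, against -0.06 in the next, and the second *Dnmt3a* probe was -0.70 in the same mouse, against -0.35. Its second *Uhrf1* probe was -0.08, and its mean over the proliferation genes was 0.21, the highest of the LL mice. *Tet3* was 0.41 in LH mouse 3, against 0.11, and its second probe was 0.89 in HH mouse 4, against 0.58. No diet effect of a member differed between liver and colon by the test of that difference.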

How the results depend on the processing

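In both tissues 0 of 7 genes were called for diet, and 0 for the difference of diet effects, under every alternative run (18 in colon, 20 in liver and 17 for the difference) and without each mouse in turn. For liver *vs.* colon the count of 4 became 5 with an offset of 0, with processed signals, with median centring and with Cy3 alone, 3 with the mean of all probes of a gene (*Tet3* at -0.48), 6 with no fold change minimum, and 4 to 5 without single mice. *Dnmt3b* was among those called with an offset of 0 (0.76), processed signals (0.83) and Cy3 alone (0.60).

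The sign of *Dnmt3a* (-0.01) turned with the local background as deposited (0.0010), an offset of 0 (0.093), processed signals (0.13), array weights (0.0023), the mean of probes (0.19) and without mice with high *Xist* (0.022), and leaving out single mice gave -0.043 to 0.020. *Tet2* (0.17) turned with processed signals (-0.13), median centring (-0.21) and the mean of probes (-0.017). Median centring gave -0.61 for *Dnmt3a*, which was then called. The cause was not tested.

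Over all probes, calls for liver *vs.* colon rose from 12491 to 24221 with median centring (57.8% of them higher in liver, against 48.2%), 20275 with processed signals and 17334 with an offset of 0. Calls for LH *vs.* HH in liver, 0 in limma with 4 groups (4934 at an unadjusted p under 0.05), became 106 with all 8 groups in one fit, 18 with these groups only, 6 with both arrays of one mouse counted, 3 with array weights, and 2 and 1 without HL mouse 4 and LL mouse 4. Those for the interaction became 52 with all 8 groups, 19 with array weights and 4 with slide as a block, and those for the liver minus colon difference of LH *vs.* HH became 11 with array weights. The calls for LH *vs.* HH, and for its liver minus colon difference, held no member. The labels give the slide, and within a tissue the replicate number and the slide are the same. With slide as the replicate block 0 of 7 genes were called in either tissue and 0 for the difference. Liver *vs.* colon was not tested with this block, because each slide held 1 tissue. The dimness of *Uhrf1* in liver and of the second *Tet2* probe limits their values.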
